A study of Oreochromis niloticus with 3 samples.

Results

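The step from moderate to high salinity was described by comparing the hepatopancreas of Nile tilapia kept at 8 psu with that of fish kept at 16 psu, across all genes. The practical salinity unit (psu) is close to grams of salt per kilogram of water. Genes entered when they had at least 10 counts in at least 1 of the 2 libraries, which kept 16163 of the 29605 genes in the count table (54.6%). Each salinity is represented by 1 RNA-Seq library, pooled from 8 healthy juvenile fish, and 1 further library of fish in freshwater (0 psu) is given beside them as a level only. The fish came from 3 tanks at each salinity. Salinity was raised by 4 psu per day with sea salt, after which the labels give 5 weeks of rearing at 30 fish per tank, while the study's methods state another length and stocking. All fish ate the same commercial diet and were fasted for a day before sampling. The sampled fish were anaesthetised, and no other drug and no genetic change is named. The libraries were made from poly(A) RNA and run together on 1 chip of an Ion Proton sequencer.

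With 1 pooled library a salinity, no difference below has a replicate check. The pools average 8 fish and hide the variation between fish and between tanks. A difference between the libraries cannot be told apart from a difference between pools, tanks or library preparations. The intervals given are exact 95% Clopper-Pearson intervals and cover counting error only. The counts summed to 13628578 at 8 psu and 16112951 at 16 psu (14627514 at 0 psu). Levels are given in CPM, counts scaled to a common library size by TMM, a method that sets the sizes so that most genes do not shift. On this scale 1 count was worth 0.0740 CPM in the 8 psu library and 0.0615 CPM in the 16 psu library. For genes with 0 counts the limit used is 3 counts, which is 0.222 and 0.185 CPM.

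The hepatopancreas of tilapia is a liver with strands of exocrine pancreas running through it. Its hepatocytes make most plasma proteins and handle glucose, sterols and fat, and its acinar cells make digestive enzymes. Secreted proteins fold in the endoplasmic reticulum (ER) with the help of chaperones, whose genes respond to the folding load. Cortisol, insulin and insulin-like growth factors are among the hormones that set metabolic gene expression in this organ, and cortisol also takes part in the acclimation of fish to salt water. The labels name the cells as histiocytes, which are tissue macrophages, but the marker genes show whole tissue. The 25 hepatocyte markers summed to 114051 CPM at 8 psu and 119375 CPM at 16 psu, and the 9 exocrine pancreas markers to 18231 and 18087 CPM. The 20 markers of macrophages and other leukocytes summed to 1269 and 1145 CPM.

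A gene was called higher or lower at 16 psu when its fold change, computed on CPM + 0.5, was above 2 or below 0.5 and its counting interval left out no change. Folds and intervals printed below are ratios of CPM without that addition, while log2 values include it. By this rule 592 genes (3.66%) were higher and 354 (2.19%) lower at 16 psu, 5.85% in all. A gene not called was not thereby unchanged. With a limit of 1.5-fold 1384 genes were higher and 1221 lower. The median log2 fold change over all 16163 genes was 0.00, a value that the scaling holds near 0. The median of its absolute value was 0.27, with 8091 genes above 0. The middle 50% of genes lay between -0.27 and 0.28, and the 5th and 95th percentiles were -0.76 and 0.86. Large changes were mostly upward. A 4-fold limit was passed by 106 genes that were higher and 15 that were lower, and an 8-fold limit by 39 and 5. The interval removed no gene that had passed the fold limit. Of the genes called, 304 of the 592 and 185 of the 354 had a name.

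**Figure D1:**
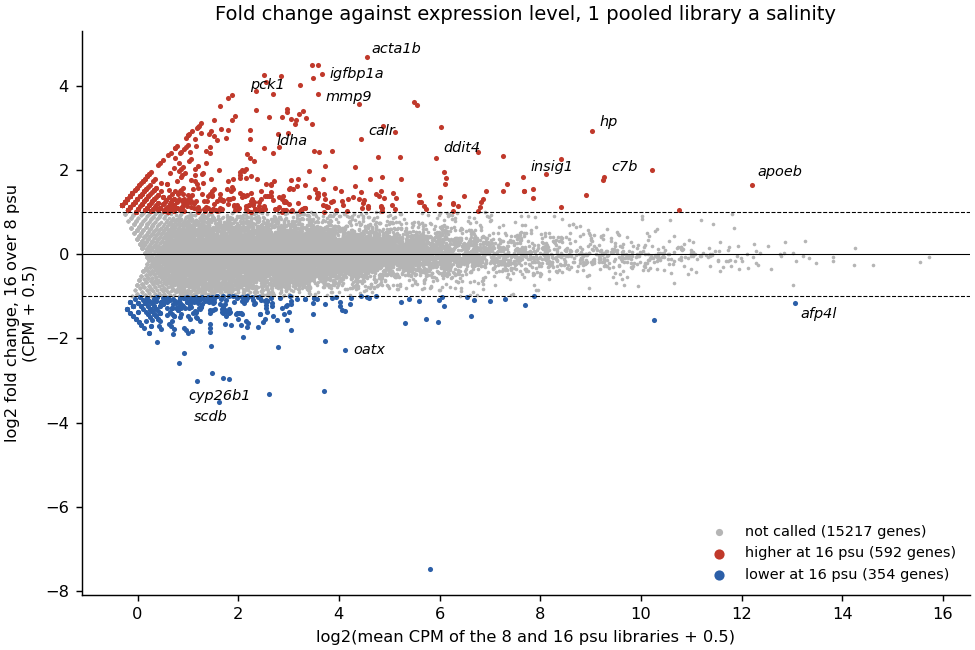
Each point is 1 of the 16163 genes, with its mean level in the 8 and 16 psu libraries on the x axis, as log2 of CPM + 0.5, and its log2 fold change at 16 over 8 psu on the y axis. Red points are the 592 genes called higher and blue points the 354 called lower, and the dashed lines mark the 2-fold limits. The highest red point is acta1b at 4.68 and the lowest blue point, at -7.48, is an unnamed locus.

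The share of genes called was highest among genes with few counts. Among genes with 10 to 29 counts in the deeper library 6.37% were called higher and 4.37% lower. For 100 to 299 counts these shares were 2.57% and 0.988%, and for 1000 to 9999 counts 3.15% and 1.14%. Of the 8035 genes with at least 100 counts, 204 (2.54%) were higher and 72 (0.896%) lower, 3.43% in all. At high depth the counting interval separated small differences too. It left out no change for 89.5% of the 247 genes with 10000 counts or more, whose median absolute log2 fold change was 0.16. The calls of genes with few counts depended on the added 0.5 CPM, since an addition of 2 CPM left 226 genes higher and 64 lower. Such cases are named below.

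**Figure D2:**
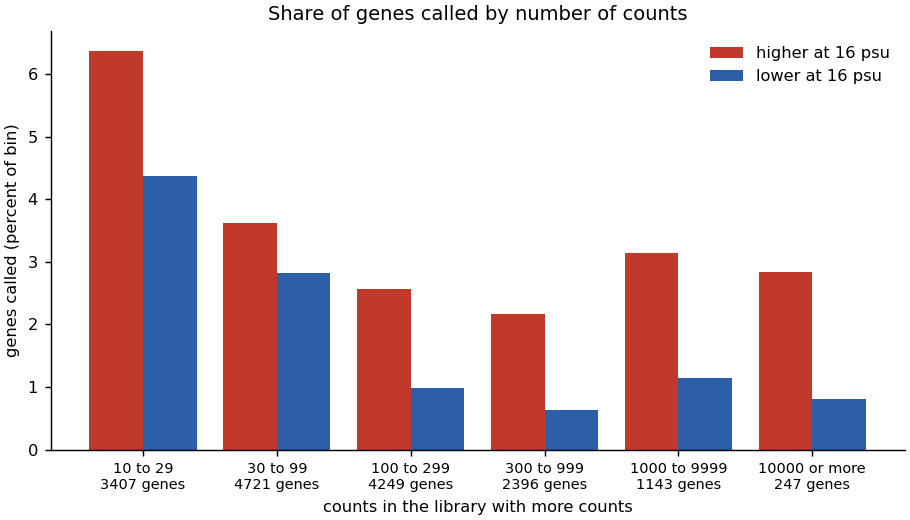
Bars give the percent of genes called higher (red) or lower (blue) at 16 psu, in bins of the counts in the library with more counts. The share called lower falls from 4.37% in the first bin to at most 1.14% in each bin from 100 counts on, while the share called higher stays between 2.17% and 3.15% there.

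Of the 10 largest increases with at least 100 counts, 6 belonged to genes with a name: acta1b, ckmb, mylz3 and mylpfa, which encode a skeletal actin, a muscle creatine kinase and fast-muscle myosin light chains, and igfbp1a and pck1. The gene igfbp1a encodes a liver-made binding protein of insulin-like growth factors and is typed as a non-coding RNA in the table. It rose from 0.740 CPM at 8 psu to 23.5 CPM at 16 psu, 31.8-fold (17.1 to 66.8), with 1.66 CPM at 0 psu. The gene pck1 encodes the cytosolic PEP carboxykinase that starts gluconeogenesis from oxaloacetate. It rose from 0.592 to 17.2 CPM, 29.1-fold (14.6 to 68.1), with 1.36 CPM at 0 psu. For both genes the 16 psu library stood above the other 2 libraries. The other 4 were unnamed loci. LOC100707421 had 3 counts at 8 psu and 213 at 16 psu, a ratio of 59.1 (19.9 to 289), and LOC100697403 had 2 and 171 counts, a ratio of 71.1 (19.4 to 592). The largest ratio of the 4, 139.8 (24.7 to 5552), was that of a locus typed as a non-coding RNA, with 1 and 168 counts.

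Of the 10 largest decreases, 3 had a name. The gene cyp26b1, whose product degrades retinoic acid, fell from 10.7 to 0.615 CPM, 17.3-fold (9.15 to 36.9), with 3.99 CPM at 0 psu. The gene oatx, named as an organic anion transporter, fell from 28.5 to 5.48 CPM, 5.20-fold (4.12 to 6.62), with 22.5 CPM at 0 psu. The gene sh3pxd2aa, which encodes an adaptor of cell protrusions, fell from 7.99 to 2.28 CPM, 3.51-fold (2.40 to 5.24). The lowest fold change of all belonged to the unnamed locus LOC102082407, typed as a miscellaneous RNA. Its counts were 0, 1497 and 2 in the 0, 8 and 16 psu libraries, so that nearly all of its reads came from the 8 psu pool. The protein-coding locus LOC100702388 fell from 23.01 to 1.97 CPM, 11.7-fold (8.11 to 17.4), with 29.5 CPM at 0 psu.

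Further genes were picked for the text after their values were seen. Among them zmat3, a zinc finger gene that p53 controls in mammals, rose from 0.888 to 12.8 CPM, 14.4-fold (8.08 to 28.4). A locus named granzyme rose from 1.18 to 11.6 CPM, 9.77-fold (5.86 to 17.5), and tor3a, which encodes an ATPase of the ER, from 3.33 to 20.0 CPM, 6.01-fold (4.39 to 8.40). Downward, dio1 encodes a deiodinase of thyroid hormones. It fell from 51.1 to 22.9 CPM, 2.23-fold (1.97 to 2.54), with 36.2 CPM at 0 psu. The gene of the atypical protein kinase C zeta, prkcz, fell from 78.5 to 26.7 CPM, 2.94-fold (2.63 to 3.29).

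Some genes were found at only 1 of the 2 salinities. At 8 psu 89 of the genes kept had 0 counts, and at 16 psu 23 did. All of these were called, since the count minimum alone puts such a gene past the 2-fold limit. A gene with fewer than 10 counts in 1 library entered through the other alone, which favours a call in that direction. Where a list below holds such genes, its share of calls is no test against that of all genes. The 16 psu library was deeper, so a given number of counts stood for a lower level there and was reached more easily. With at least 30 counts in the other library, 18 genes were found only at 16 psu and 3 only at 8 psu. Of the first, casq1a, mybpc2b and neb are muscle genes, coding for a calcium store protein, a myosin-binding protein and nebulin. With 50, 47 and 38 counts at 16 psu they were at least 13.9-fold, 13.03-fold and 10.5-fold higher than the limit of 3 counts at 8 psu. Their counting intervals, which cover counting error in both libraries, began lower, at 10.9-fold, 10.2-fold and 8.16-fold. The named gene found only at 8 psu was scdb, described below with the lipid genes.

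Skeletal muscle markers, used here as a check for another tissue, had the highest median of all 44 lists. Of 57 matched markers 30 were kept, and 20 of these were higher and none lower, beside 3.66% and 2.19% of all genes, with a median log2 fold change of 1.37 against 0.00 over all genes. Skeletal actin acta1b had 4.67, 1.26 and 44.6 CPM at 0, 8 and 16 psu, and was 35.4-fold higher at 16 than at 8 psu (22.0 to 61.2). Muscle creatine kinase ckmb had 2.03, 0.518 and 22.4 CPM, a 43.3-fold increase (20.8 to 108), and its duplicate ckma 3.54, 0.666 and 10.5 CPM, a 15.8-fold increase (8.13 to 35.2). The myosin light chain gene mylz3 had 1.58, 0.444 and 20.6 CPM and mylpfa 3.32, 0.666 and 20.7 CPM. For each of these 5 genes the 8 psu library was the lowest and the 16 psu library the highest. Not all markers moved. The gene Mb, named for myoglobin, was at 3888 and 3176 CPM, and eno3, an enolase gene that muscle uses and that was well expressed in these liver libraries, at 1869 and 1701 CPM. All 30 markers kept summed to 5505, 5855 and 5125 CPM at 0, 8 and 16 psu. Without Mb and eno3, left out after their values were seen, 28 markers summed to 107, 97.6 and 249 CPM. Of the matched markers 10 had 0 counts at both 8 and 16 psu. In pooled tissue, fewer cells of a type and less RNA per cell cannot be told apart. Most of the 20 had fewer than 10 counts at 8 psu and entered through the 16 psu library alone, which favours calls of higher. Among these, ckmb, mylz3, mylpfa and ttn had 7, 6, 9 and 3 counts at 8 psu, and casq1a, mybpc2b and neb 0. All genes kept with 0 counts at 8 psu were called. By contrast acta1b and smyd1b had 17 and 18 counts at 8 psu. Together the 20 summed to 22.0, 6.95 and 156 CPM at 0, 8 and 16 psu. Their share of calls is thus no test against that of all genes. With no count minimum 20 of 47 markers were called higher, and with at least 100 counts 5 of 10. With an addition of 2 CPM 13 of the 20 calls were made.

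**Figure D3:**
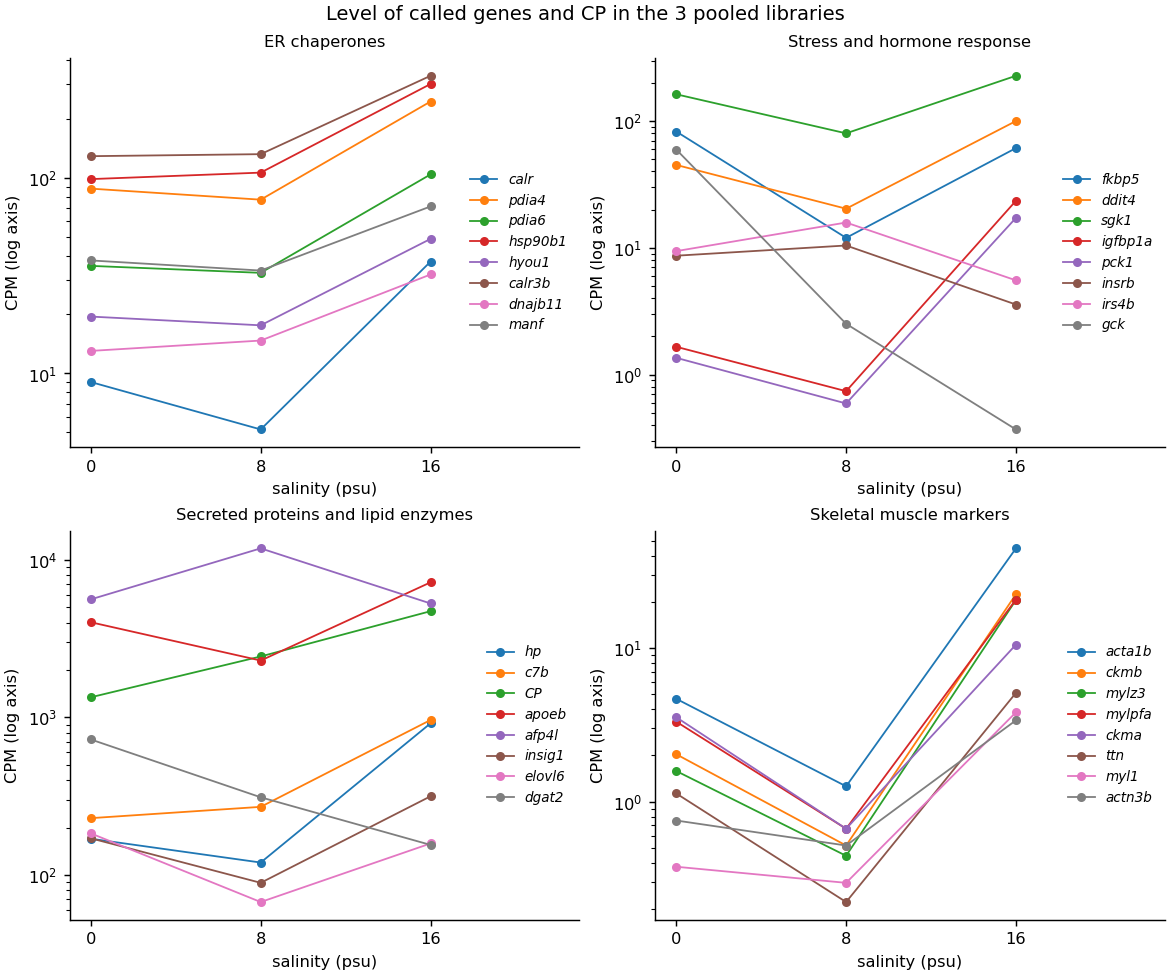
Level in CPM (log axis) of 32 genes in the 3 pooled libraries against salinity, in 4 groups, with lines joining the libraries of 1 gene. All 8 ER chaperones are highest at 16 psu, while fkbp5, ddit4, insig1 and the muscle genes are lowest at 8 psu. CP, at 1343, 2438 and 4726 CPM, is the gene shown that was not called.

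Of 35 ER chaperones and folding enzymes 8 (22.9%) were called higher, beside 3.66% of all genes, and none lower, 30 lay above 0, and the median log2 fold change was 0.38. The summed level of the list was 2111 CPM at 8 psu and 3439 CPM at 16 psu, with 1981 CPM at 0 psu. Both calreticulin genes, which code for calcium-binding chaperones of glycoproteins, rose. For calr the level went from 5.18 to 37.2 CPM, 7.19-fold (5.61 to 9.35), with 9.04 CPM at 0 psu. For calr3b it went from 132 to 331 CPM, 2.51-fold (2.38 to 2.65), with 129 CPM at 0 psu. The HSP90 form of the ER, hsp90b1, rose from 106 to 300.2 CPM, 2.83-fold (2.67 to 3.01), with 98.2 CPM at 0 psu. Disulphide isomerases shuffle the disulphide bonds of new proteins. Of these, pdia4 rose from 77.1 to 244 CPM, 3.17-fold (2.96 to 3.40), and pdia6 from 32.6 to 104 CPM, 3.18-fold (2.86 to 3.54). The abundant members p4hb (394 and 587 CPM) and pdia3 (587 and 764 CPM) stayed under the 2-fold limit. The co-chaperones hyou1 (17.6 to 48.6 CPM) and dnajb11 (14.7 to 32.0 CPM) and the secreted ER protein manf (33.5 to 71.2 CPM) rose 2.76-fold (2.39 to 3.21), 2.17-fold (1.84 to 2.57) and 2.12-fold (1.90 to 2.37). All 8 calls were also made with an addition of 2 CPM and among genes with at least 100 counts. The list as planned also names the chaperone gene hspa5, which was not among the 8.

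The rest of the secretory route moved less but mostly the same way. None of 51 genes of ER translocation, export and degradation was called, while 47 lay above 0 and the median was 0.31. The counting interval lay above no change for 38 of them and below it for 1. Among the largest values were those of derl1, which takes part in pulling misfolded proteins out of the ER (18.5 and 37.2 CPM, log2 0.99), and tram1, a translocation protein (21.3 and 40.4 CPM, log2 0.91). Of 20 sensors and factors of the unfolded protein response none was called and 17 lay above 0, with a median of 0.31. The transcription factor gene xbp1, which drives chaperone genes, was at 216 and 404 CPM (log2 0.90), and ddit3, which codes for the death-associated factor CHOP, at 266 and 194 CPM (log2 -0.45). Cytosolic heat shock proteins did not share the shift. Their median was -0.03 over 28 genes, with none higher and 2 (7.14%) lower, beside 2.19% of all genes. These were the co-chaperones chordc1b (71 and 35 counts) and dnajb1a (26 and 11 counts), and with an addition of 2 CPM neither was called. Proteasome subunits had no call and 41 of 52 above 0, with a median of 0.18.

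**Figure D4:**
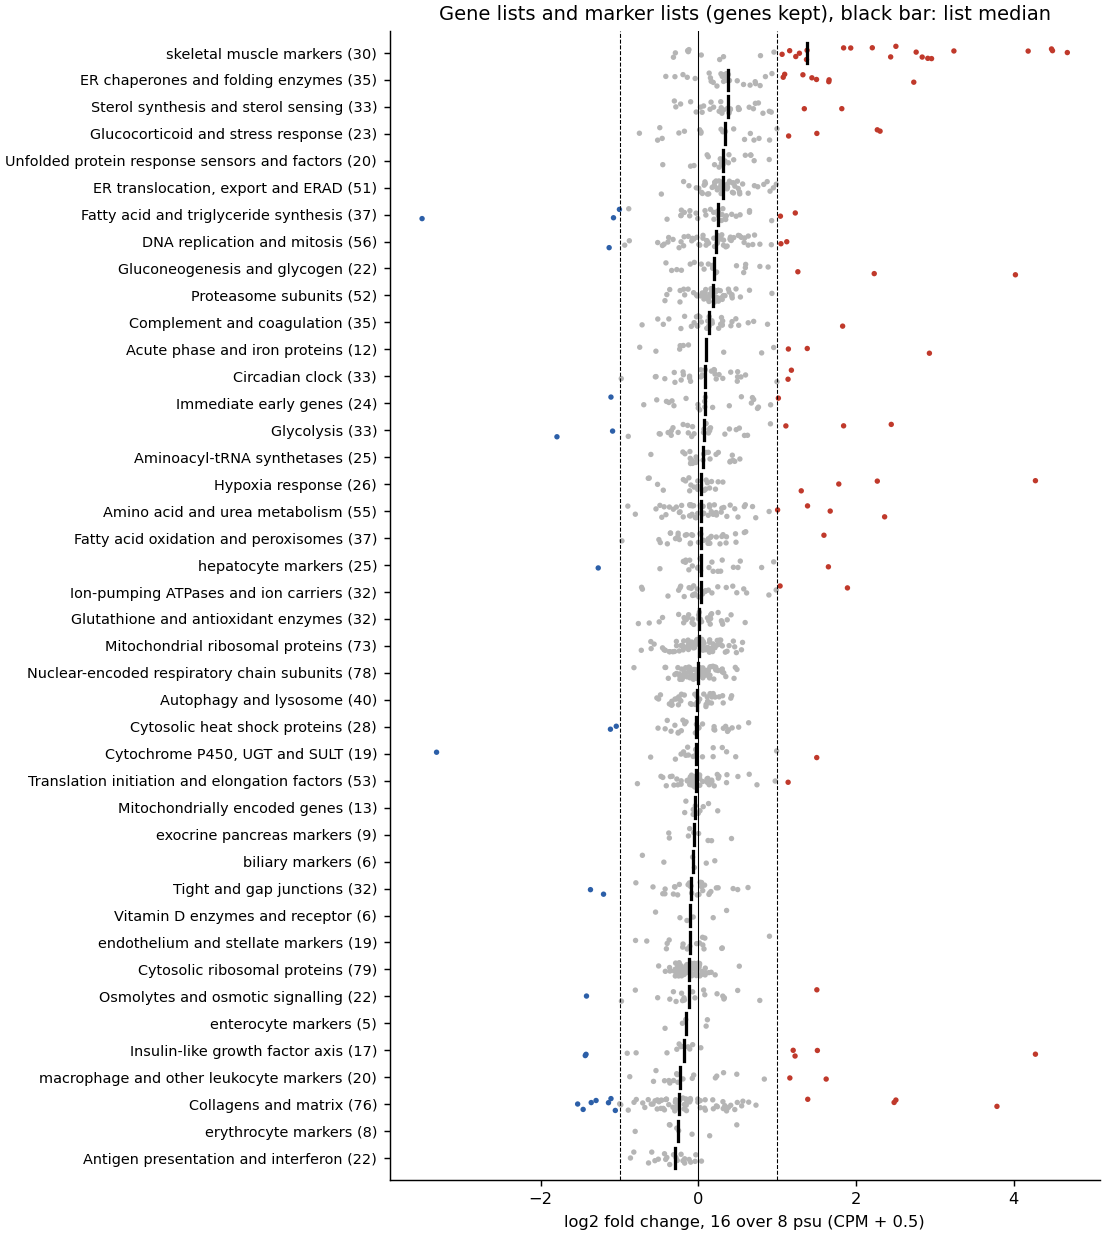
Each point is 1 kept gene of a gene list or marker list, placed by its log2 fold change at 16 over 8 psu, with red for higher and blue for lower calls and a black bar at the list median. Lists with 5 or more kept genes are shown, with that number in parentheses. Skeletal muscle markers have the highest median (1.37), then ER chaperones (0.38) and sterol genes (0.37), and antigen presentation has the lowest (-0.30).

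Of 33 genes of sterol synthesis and sensing 28 lay above 0, beside 8091 of all 16163 genes, with a median of 0.37. Of these 33 genes 2 (6.06%) were called higher, near the 3.66% of all genes, and none lower. The summed level was 8415 CPM at 8 psu and 10401 CPM at 16 psu. The gene insig1 encodes the ER protein that holds back the sterol regulator SREBP and is itself an SREBP target. It had 171, 89.2 and 316 CPM at 0, 8 and 16 psu, and was 3.54-fold higher at 16 than at 8 psu (3.33 to 3.78). The receptor gene ldlrb, for uptake of low-density lipoprotein, had 173, 35.7 and 91.5 CPM, a 2.56-fold increase (2.31 to 2.84). At 16 psu ldlrb was below its 0 psu level and insig1 above it. Synthesis enzymes stayed under the limit. Among them the values at 8 and 16 psu were 150 and 281 CPM for squalene epoxidase sqle, 133 and 226 CPM for lanosterol synthase lss, and 51.7 and 98.6 CPM for fdps. Methylsterol oxidase msmo1, at 2390 and 2433 CPM, was level.

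Of 37 genes of fatty acid and triglyceride synthesis 2 (5.41%) were higher and 3 (8.11%) lower, beside 3.66% and 2.19% of all genes, and the median was 0.24. The elongase elovl6, which extends palmitate, had 184, 67.3 and 158 CPM at 0, 8 and 16 psu, a 2.35-fold increase from 8 to 16 psu (2.18 to 2.54). The phosphatidate phosphatase gene lpin1b rose from 9.62 to 20.3 CPM, 2.11-fold (1.72 to 2.61), while its duplicate lpin1a was at 13.1 and 11.5 CPM. The 3 lower genes act at desaturation and at the last steps of triglyceride assembly. The acyltransferase dgat2, which closes triglyceride synthesis, had 725, 311 and 155 CPM, a 2.01-fold decrease (1.91 to 2.11), and mogat2 27.6, 13.02 and 5.91 CPM, a 2.20-fold decrease (1.71 to 2.86). The desaturase scdb had 197, 70 and 0 counts in the 3 libraries in order of salinity. Against the limit of 3 counts at 16 psu it was at least 28.0-fold lower at 16 than at 8 psu. Its counting interval, which covers counting error in both libraries, began at 22.2-fold. All 3 were lower at each higher salinity. The main desaturase gene scd, at 12365 and 10609 CPM, was not called. An abundant locus named fas, known by symbol only and outside the list, was picked after its values were seen. It had 2721, 722 and 1357 CPM at 0, 8 and 16 psu, a 1.88-fold increase from 8 to 16 psu (1.83 to 1.92), and was not called. The call of dgat2 lay at the limit and was not made with DESeq2 or total-count scaling, with no count minimum or with an addition of 2 CPM. That addition also ended the calls of mogat2 and lpin1b. Of 37 genes of fatty acid oxidation 1 (2.70%, beside 3.66% of all genes) was higher, acot7 with 1 and 20 counts, and none lower. The median was 0.03. An addition of 2 CPM ended the call of acot7.

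Genes of glucose handling changed at single steps. Glucokinase gck, which traps glucose in hepatocytes, had 59.6, 2.52 and 0.369 CPM at 0, 8 and 16 psu. From 8 to 16 psu the counts went from 34 to 6, a 6.81-fold decrease (2.83 to 19.8), and with an addition of 2 CPM this was not called. Over 33 glycolysis genes, gck among them, the median was 0.06. Of these 3 (9.09%) were higher and 2 (6.06%) lower, beside 3.66% and 2.19% of all genes. The counting interval lay above no change for 14 of the 33 and below it for 9. Loci named ald (3 and 105 counts) and PK (0 and 59 counts), known by symbol only and outside the list, were also called higher. They were picked after their values were seen. Lactate dehydrogenase ldha, the muscle form, had 10.1, 4.00 and 24.0 CPM, a 6.01-fold increase (4.51 to 8.14). The other genes called were pgam2 (0 and 21 counts), gpib (1 and 12 counts) and, lower, pfkfb3 (20 and 7 counts), and an addition of 2 CPM ended these calls. Of the called glycolysis genes, pgam2 and gpib entered through the 16 psu library alone, and gck and pfkfb3 through the 8 psu library alone. The shares of calls are thus no test against those of all genes. Of 22 genes of gluconeogenesis and glycogen 3 (13.6%) were higher, beside 3.66% of all genes, and none lower, with a median of 0.20. Beside pck1 these were the muscle forms of glycogen synthase, gys1 (4.00 to 10.3 CPM, 2.57-fold, 1.88 to 3.56), and of glycogen phosphorylase, pygma (0 to 30 counts, at least 8.32-fold against the limit of 3 counts). The counting interval of pygma began at 6.36-fold, and with an addition of 2 CPM pygma was not called. Both pck1 (8 and 280 counts) and pygma entered through the 16 psu library alone, so the share of calls in this list is also no test. The liver forms gys2 (264 and 289 CPM) and pygl (69.3 and 105 CPM) were not called. As given above, the summed muscle markers went from 5855 to 5125 CPM, and without Mb and eno3 from 97.6 to 249 CPM. The part of muscle RNA in the values of ldha, pgam2, gys1 and pygma was not tested.

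Within the insulin-like growth factor axis 4 of 17 genes (23.5%) were higher and 2 (11.8%) lower, beside 3.66% and 2.19% of all genes, and the median was -0.19. Besides igfbp1a, the binding protein genes igfbp3 (11 and 41 counts) and igfbp5a (0 and 15 counts) and the receptor gene igf1rb (10 and 39 counts) were higher, calls that an addition of 2 CPM ended. The insulin receptor duplicate insrb had 8.67, 10.4 and 3.57 CPM at 0, 8 and 16 psu, a 2.92-fold decrease from 8 to 16 psu (2.14 to 4.04). The adaptor irs4b, which relays the signal of that receptor family, had 9.42, 15.8 and 5.54 CPM, a 2.86-fold decrease (2.22 to 3.70). The other receptor locus, insr, was at 46.9 and 38.7 CPM and was not called. The 2 lower genes were below their 0 psu level at 16 psu.

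Genes of the glucocorticoid and stress response included 4 called higher of 23 (17.4%, beside 3.66% of all genes) and none lower, with a median of 0.34. The co-chaperone fkbp5, induced by cortisol through its receptor, had 82.7, 11.99 and 61.2 CPM at 0, 8 and 16 psu. It was 5.10-fold higher at 16 than at 8 psu (4.32 to 6.06). The mTORC1 inhibitor ddit4 had 45.1, 20.3 and 100.02 CPM, a 4.92-fold increase (4.32 to 5.61). The kinase sgk1, which regulates ion transport, had 163, 80.0 and 228 CPM, a 2.85-fold increase (2.66 to 3.05). The growth arrest gene gadd45ga had 73.5, 50.8 and 113 CPM, a 2.22-fold increase (2.03 to 2.43). All 4 genes were lowest in the 8 psu library, and fkbp5 did not return to its 0 psu level. The 8 psu library is common to the steps before and after it, so a low value in that 1 library sets both. The factor genes cebpd (79.4 and 159 CPM) and cebpb (136 and 254 CPM) lay under the limit, and metallothionein mt2 had 449, 45.9 and 27.1 CPM.

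Hypoxia genes gave 4 calls among 26 (15.4%, beside 3.66% of all genes), all higher, with a median of 0.03. Of these igfbp1a and ddit4 were counted above. The prolyl hydroxylase gene egln3, a target of hypoxia-inducible factor, rose from 16.5 to 57.9 CPM, 3.51-fold (3.03 to 4.08), with 20.2 CPM at 0 psu. The erythropoietin gene epoa rose from 2.29 to 6.40 CPM, 2.79-fold (1.85 to 4.31), a call that an addition of 2 CPM ended. Most of this list thus stayed under the limit while a few members passed it. The circadian clock showed 2 higher genes of 33 (6.06%, beside 3.66% of all genes) with a median of 0.09. They were the repressor ciarta, from 17.4 to 38.8 CPM (2.23-fold, 1.92 to 2.61), and clocka, with 1 and 13 counts, which was not called with an addition of 2 CPM. Of 24 immediate early genes 1 (4.17%) was higher, nr4a3 (18 and 52 counts), and 1 (4.17%) lower, klf4 (15 and 4 counts). Over all genes these shares were 3.66% and 2.19%. Neither gene was called with an addition of 2 CPM.

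Several secreted plasma proteins rose at 16 psu. The gene hp, named for haptoglobin, which binds free haemoglobin, had 170, 120 and 918 CPM at 0, 8 and 16 psu. This was a 7.65-fold increase from 8 to 16 psu (7.27 to 8.06). Complement component c7b, part of the pore that complement builds in membranes, had 229, 271 and 963 CPM, a 3.56-fold increase (3.43 to 3.69). It was the single call (2.86%, beside 3.66% of all genes) among 35 complement and coagulation genes, of which 23 lay above 0 with a median of 0.13. Its neighbours in that pore, c6.2 (168 and 309 CPM), c8g (330 and 512 CPM) and C5 (2100 and 3414 CPM), lay under the limit. Of 12 acute phase and iron proteins 6 lay above 0 and 6 below, with a median of 0.10. Their summed level was 66587 CPM at 8 psu and 60175 CPM at 16 psu. Of the 12 genes 3 (25%) were called higher, beside 3.66% of all genes, and none lower. Besides hp these were nfkbiz, which encodes a regulator of inflammatory genes (2.81 to 8.12 CPM, 2.89-fold, 2.00 to 4.26), and hamp, which encodes the iron hormone hepcidin (2.29 to 5.66 CPM, 2.47-fold, 1.63 to 3.84). At 0 psu hamp stood at 18.7 CPM, and an addition of 2 CPM ended its call. The iron store gene fth1a (10420 and 6219 CPM) and the iron exporter gene slc40a1 (830 and 571 CPM) were not called.

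Genes of antigen presentation were mostly lower at 16 psu without passing the limit. Of 22 genes of antigen presentation and interferon none was called, 1 lay above 0 and the median was -0.30, with the counting interval below no change for 16. The largest differences were in nlrc5, which switches on class I antigen presentation (9.47 and 4.99 CPM), and rsad2, an antiviral gene (44.9 and 25.2 CPM). Among leukocyte markers 2 of 20 (10%) were higher, beside 3.66% of all genes, and none lower, with a median of -0.23. Myeloperoxidase mpx, a neutrophil enzyme, rose from 9.25 to 29.5 CPM, 3.19-fold (2.61 to 3.91), and nccrp1, a receptor of fish cytotoxic cells, from 20.1 to 45.4 CPM, 2.27-fold (1.97 to 2.61). Both had been higher at 0 than at 8 psu, with 18.5 and 39.1 CPM. The gelatinase mmp9, which neutrophils and macrophages release, rose from 1.11 to 21.7 CPM, 19.6-fold (11.7 to 35.4), with 1.21 CPM at 0 psu. The summed leukocyte markers were 1269 and 1145 CPM, as given above, and the part of leukocyte content in these values was not tested. Macrophage markers such as marco (10.4 and 5.48 CPM) and cd68 (18.5 and 14.8 CPM) were not called.

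Of 76 collagens and matrix genes 25 lay above 0 and the median was -0.25. Of the 76 genes 4 (5.26%) were higher and 7 (9.21%) lower, beside 3.66% and 2.19% of all genes. Decorin dcn, a proteoglycan that binds collagen fibrils, had 10.9, 24.6 and 9.29 CPM at 0, 8 and 16 psu, a 2.65-fold decrease from 8 to 16 psu (2.18 to 3.23). The abundant type I collagen genes lay under the limit and were not called. For col1a1b the levels were 73.2, 113 and 56.3 CPM, for col1a2 79.7, 129 and 65.0 CPM, and for col1a1 57.6, 111 and 59.8 CPM. All 3 were highest in the 8 psu library, as was dcn. The other lower genes were itga5, lama2, col6a4a, col9a3, col12a1a and col28a1b, with 16 to 146 counts at 8 psu. With an addition of 2 CPM only dcn of the 7 was called. With upper quartile scaling or an addition of 0.1 CPM, 8 genes of this list were called lower. Among the higher genes were mmp9 and the collagenase mmp13a (1 and 44 counts, a ratio of 36.6, 6.24 to 1478), together with col11a1a (0 and 38 counts) and col23a1a (13 and 54 counts), the last not called with an addition of 2 CPM. Of the called genes, mmp13a and col11a1a entered through the 16 psu library alone. Through the 8 psu library alone entered lama2 (20 and 3 counts) and col28a1b (16 and 3 counts). The shares of calls in this list are thus no test against those of all genes. Tight and gap junction genes had 2 lower (6.25%, beside 2.19% of all genes) and none higher of 32. These were the connexin gjb8 (141 and 69 counts) and jam3b (15 and 2 counts), and neither was called with an addition of 2 CPM.

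Few of the listed genes of ion and water balance were called. Of 32 ion-pumping ATPases and ion carriers 2 (6.25%, beside 3.66% of all genes) were higher, atp1a3a with 0 and 22 counts and kcnj1a.1 with 1 and 11 counts. None was lower, and the median was 0.03. Both calls ended with an addition of 2 CPM. The locus atp2a1l, named as a calcium pump and outside the list, was picked after its values were seen. The gene name atp2a1 is in this list and also in that of the skeletal muscle markers, but atp2a1l was matched to neither. The level of atp2a1l rose from 0.814 to 13.8 CPM, 17.0-fold (9.33 to 34.6), with 0.226 CPM at 0 psu. The part of muscle RNA in this value was not tested. Of 22 genes of osmolytes and osmotic signalling 1 (4.55%) was higher, sgk1, and 1 (4.55%) lower, beside 3.66% and 2.19% of all genes. The lower gene was trpv4, a cation channel that senses cell volume (18 and 3 counts, not called with an addition of 2 CPM). The osmotic transcription factor nfat5 was at 8.73 and 7.63 CPM, and bhmt, which uses up the osmolyte betaine, at 634 and 364 CPM. Amino acid and urea metabolism had 4 higher (7.27%, beside 3.66% of all genes) and none lower of 55, with a median of 0.03. Proline dehydrogenase prodha rose from 0.962 to 7.02 CPM, 7.29-fold (4.10 to 14.1), and arginase arg2 from 2.52 to 9.11 CPM, 3.62-fold (2.48 to 5.42). Both were also higher at 0 psu than at 8 psu, with 4.22 and 8.82 CPM. Phosphoserine phosphatase psph, the last step of serine synthesis, rose from 14.9 to 39.8 CPM, 2.66-fold (2.27 to 3.14). The fourth, glulb, had 2 and 13 counts, and its call ended with an addition of 2 CPM and with the scaling over 3 libraries or by the upper quartile.

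The large housekeeping complexes had small medians and no call. None of 79 cytosolic ribosomal protein genes was called, 14 lay above 0 and the median was -0.12. The counting interval lay below no change for 53 of them and above it for 8. Their summed level was 58718 CPM at 8 psu and 55124 CPM at 16 psu, with 85918 CPM at 0 psu. Mitochondrial ribosomal proteins (73 genes), nuclear-encoded respiratory chain subunits (78 genes) and mitochondrially encoded genes (13 genes) had no call and medians of 0.00, 0.00 and -0.04. There was also no call among 25 aminoacyl-tRNA synthetases, 32 glutathione and antioxidant enzymes, 40 autophagy and lysosome genes and 6 vitamin D genes. Of 53 translation factors 1 (1.89%, beside 3.66% of all genes) was higher, eif4g3a (14.4 to 32.2 CPM, 2.24-fold, 1.90 to 2.66), and none lower. Of 56 genes of replication and mitosis 2 (3.57%) were higher and 1 (1.79%) lower, near the 3.66% and 2.19% of all genes. The genes cdc6 (4 and 20 counts), a loader of the replicative helicase, and mcm4 (40 and 108 counts), a subunit of it, were higher. The cyclin ccnb3 (19 and 6 counts) was lower. None of these 3 was called with an addition of 2 CPM. Of 19 cytochrome P450, UGT and SULT genes 1 (5.26%) was higher and 1 (5.26%) lower, beside 3.66% and 2.19% of all genes. The steroid 21-hydroxylase gene cyp21a2 was higher (14.4 to 41.5 CPM, 2.89-fold, 2.46 to 3.41), and cyp26b1 was lower.

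Differences in CPM show which genes took up more or less of each library. CPM counts reads and not molecules, since no transcript lengths were used. Summed over genes, gains came to 74672 CPM and losses to -91306 CPM, and the 10 largest made up 26.1% and 37.2% of them. The largest gain was in apoeb, an apolipoprotein E gene for lipid transport, which rose from 2296 to 7202 CPM, 3.14-fold (3.10 to 3.18), with 4019 CPM at 0 psu. Next among named genes came CP, named for the copper enzyme ceruloplasmin, at 2438 and 4726 CPM, the fibrinogen genes fga (8726 and 10759 CPM) and fgb (6726 and 8180 CPM), C5 and hpxb. The largest loss was in afp4l, a gene named as antifreeze protein 4 like. It had 5617, 11836 and 5288 CPM at 0, 8 and 16 psu, a 2.24-fold decrease from 8 to 16 psu (2.22 to 2.26). It was followed, among named genes, by hpxa (50780 and 44467 CPM), fth1a, apo14kda (21034 and 17686 CPM), scd and apoc1 (15172 and 13535 CPM). Of these named genes only apoeb and afp4l were called. None of the 10 genes with the most counts over both libraries, of which hpxa ranked second, was called.

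**Figure D5:**
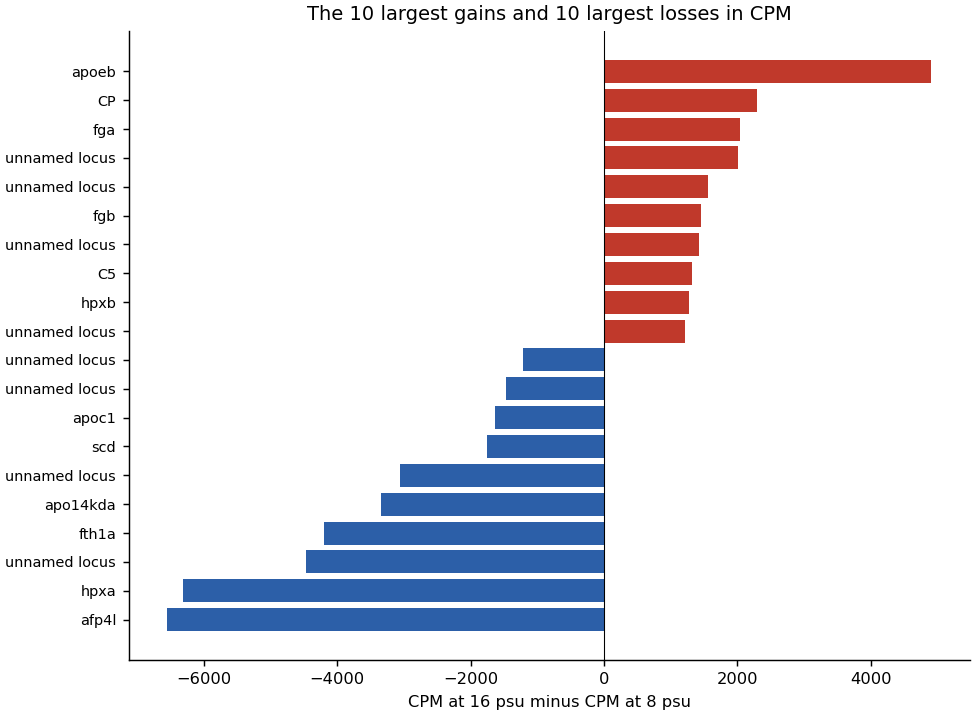
Bars give the CPM at 16 psu minus the CPM at 8 psu for the 10 genes with the largest gain (red) and the 10 with the largest loss (blue), with loci that lack a symbol written as unnamed locus. The gain of apoeb, 4906 CPM, is the longest red bar, and the values of afp4l (-6548 CPM) and hpxa (-6313 CPM) are the longest blue bars.

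Fish carry many genes as a and b duplicates from an ancient duplication of the whole genome. Among the genes kept, 633 pairs of symbols differ only by a closing a or b. They include genes that are no such duplicates but are named by letter, such as the fibrinogen chains fga and fgb. Of the 1266 genes in these pairs 65 (5.13%) were called, near the 5.85% of all genes. In 60 of these at least 1 gene was called, and in 55 of the 60 it was exactly 1. Both genes were called in 5 pairs, with the same direction in 4 of them: ckma and ckmb, mylpfa and mylpfb, myom2a and myom2b, all of muscle, and errfi1a and errfi1b (log2 1.20 and 1.24), which code for feedback inhibitors of growth factor receptors. With an addition of 2 CPM mylpfb, myom2a and myom2b were not called, so that both genes stayed past the limit in the ckma, errfi1a and apoea pairs only. The fifth pair moved apart. While apoeb rose 3.14-fold, apoea fell from 9.77 to 3.75 CPM, 2.60-fold (1.91 to 3.58), with 3.92 CPM at 0 psu. A near-identical sequence in duplicates could let reads be split between them, and no source used here says how they were counted.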

How the data were processed

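Reads were single-end, and the authors aligned them to Orenil1.1 using MapSplice. The submitters' processing notes name HTSeq. They deposited 1 table of raw counts per gene, 1 column a library, without normalization. Whether strand was used, and how multiply matching reads were treated, is not given in the sources used here. PCR copies cannot be recognised, so intervals cover counting error only.

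Library sizes of the 8 and 16 psu libraries, over genes with at least 10 counts in 1 of them, were scaled by TMM (edgeR 4.0.16, R 4.3.3). Log2 fold changes used CPM + 0.5. For the intervals, the 16 psu share of a gene's reads got exact Clopper-Pearson bounds, which were converted to folds without the addition (Python 3.11.15, scipy 1.17.1). Scripts were tested on simulated data. Since each group is 1 library, no spread could be estimated. The calls rest on no test between salinities, and no p-value is given. Tests on reads alone or with an assumed spread entered only as alternatives, as counts of genes. Alternatives covered scaling, count minimum, addition, fold limit and test on reads. The EB-Seq method of the study was not run.

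Genes are named by a rule: the 10 highest and 10 lowest fold changes among calls with at least 100 counts, the 10 largest gains and losses in CPM, the 10 genes with the most counts, and members of 35 gene lists and 9 marker lists. Exceptions are stated. The genes and lists were chosen with earlier results of these data known. Names came from the table and from RefSeq for another assembly (O_niloticus_UMD_NMBU), which held 23652 of 27855 locus numbers, so no coordinates are printed. A planned motif search in promoters was not run. Of the genes kept 11231 had a name.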

Additional observations from a re-analysis of the deposited data

How the results depend on the processing

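The counts of genes called, 592 higher and 354 lower, stayed within 1.5 times under TMM over all 3 libraries, DESeq2 1.42.0 size factors, the upper quartile, total counts (610 and 333), no count minimum, the fold limit alone, and the fold limit with an adjusted exact binomial test on reads (566 and 352). An addition of 0.1 CPM gave 786 and 604 genes and one of 2 CPM 226 and 64. A minimum of 100 counts gave 199 and 79, fold limits of 1.5 and 4 gave 1384 and 1221, and 106 and 15. With edgeR's exact test and a biological coefficient of variation set to 0.2, 197 and 61 genes were left, and set to 0.4, 49 and 7. Both settings are assumptions, since single pools give no estimate. In 963 values of the 126 named genes that were called, under 8 alternatives, no fold changed its direction. These alternatives could not have shown otherwise. A changed addition keeps the sign of a fold. The scalings put the median log2 fold change over all genes between -0.012 and 0.023, far less than the 2-fold limit of a call. Of the 126 calls 42 were lost with an addition of 2 CPM, 1 each under the scalings and with no count minimum, and 0 with an addition of 0.1 CPM. A minimum of 100 counts left out 45 of the 126 genes, and the 81 that remained were all called. Some lists gained calls. With total counts, and with an addition of 0.1 CPM, 1 gene of ER translocation, export and degradation and 5 of the stress response were higher. List medians moved by 0.1 or more in 10 of 352 values. Those of skeletal muscle markers became 0.79 with no count minimum, 2.00 with at least 100 counts, and 2.90 and 0.70 with additions of 0.1 and 2 CPM. With at least 100 counts the medians of ER chaperones, stress response and immediate early genes became 0.55, 0.45 and 0.27. With no count minimum those of hepatocyte markers, enterocyte markers and acute phase proteins became 0.14, -0.018 and -0.15. No paired analysis was possible because each salinity has 1 library.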
